A study of Mus musculus with 4 samples.

Results

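Basal keratinocytes hold a set of transcription factors that keep the epidermis stratified and its lowest layer able to divide. The 8 members described here were Trp63, Myc, Tfap2a, Tfap2c, Nfib, Bnc1, Runx1 and Bcl11b, 8 of the 18193 genes named on the array. They were chosen by name, and every probe set that the platform annotation gives to 1 of them was taken, which made 29 of 45037 probe sets. A probe set is a group of short probes read together as a single value for a transcript. Of the 29, 25 passed the filter on dim probe sets, a mean log2 value over the 4 arrays of at least 5.42, and were tested. The other 4 were 3 Runx1 probe sets and 1 Nfib probe set.

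Expression was measured in basal cells of mouse tail interfollicular epidermis, on 4 arrays of 2 lines on the CD-1 background. In InvCREER/RosaYFP mice (2 arrays, 10 ug tamoxifen) the involucrin promoter drove a tamoxifen-inducible Cre, and in K14CREER/RosaYFP mice (2 arrays, 1 ug tamoxifen) the keratin 14 promoter drove it. Cre switches on a YFP reporter at the Rosa locus in both lines, so that each line is defined by the cells its promoter marked. The cells were sorted as YFP-positive, rich in surface alpha6 integrin and negative for CD34. The titles place collection at 3.5 days after induction and the protocol at 4 days, and no age is given. Because tamoxifen dose differed along with the Cre line, these cannot be told apart. Nothing in the labels ties the arrays to separate animals, and the p-values below measure only the spread between these 4 samples, part of which may be technical.

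p63, the product of Trp63, is the master regulator of stratified epithelia, and epidermis does not form without it. MYC drives growth and pushes epidermal stem cells out of the basal layer when it is overexpressed. The AP-2 factors (Tfap2a, Tfap2c), NFIB, BNC1, RUNX1 and BCL11B act beside p63 in keratinocytes and hair follicles, where they govern proliferation, adhesion and the timing of differentiation.

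None of the 25 tested member probe sets was called changed between InvCREER and K14CREER cells by limma at an adjusted p under 0.05, against 0.959% of all 22519 tested probe sets (0.275% lower and 0.684% higher in InvCREER). At an unadjusted p under 0.05 there were 4 of 25, which were the single Bnc1 probe set, 1 of Trp63 and 2 of Tfap2c, against a background of 13.9%. The factor nearest to the threshold was Bnc1, whose InvCREER mean was 0.422 of the K14CREER mean. In 11 of the 25 (44.0%) the lines did not overlap, 7 with InvCREER lower and 4 with InvCREER higher, and 42.0% of all tested probe sets did the same (22.1% lower, 20.0% higher). Means were lower in InvCREER for 14 of the 25 and for 50.9% of all tested probe sets. These shares of the members were close to the background. In 16 of the 25 (64.0%) the arrays of 1 line differed from each other by more than the lines differed in their means, against 69.8% of all tested probe sets.

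Some arrays stood apart from the rest, which touches several results below. InvCREER 1 had the lowest Eif2s3y, a Y-linked gene, at 7.49 against 9.89 to 10.25 on the other arrays. Its Xist, the RNA of the inactive X chromosome, was 12.56, against 8.26 on InvCREER 2 and 7.25 and 5.44 in K14CREER. The Y-linked Uty and Kdm5d were 4.70 and 5.04 on InvCREER 1, against 7.85 and 8.09 on InvCREER 2. The 2 InvCREER samples thus differed in their mix of sexes, whose part in the values of the 8 factors was not tested. Sebaceous gland markers averaged 11.09 and 9.50 in InvCREER against 8.28 and 7.81 in K14CREER, and all 9 tested had higher means in InvCREER without overlap, of which Dgat2 rose (adjusted p = 0.0436 by limma). Langerhans cell markers averaged 7.52 and 6.21 in InvCREER and 5.60 and 5.29 in K14CREER, and all 7 tested had higher means in InvCREER without overlap, none of them called. The part of these cells in the values of the 8 factors was not tested. On InvCREER 1 the log2 ratio of 3' to 5' Actb control probe sets, a sign of RNA quality, was 1.24, against 0.68 to 0.94 elsewhere. K14CREER 1 had Krt18, a simple-epithelial keratin, at 7.69 against 4.20 to 4.40 elsewhere. Its Cd34, whose protein the sort selected against, was 6.07, against 3.59 to 3.88 on the other arrays, with a mean under the filter. Krt14, the keratin that defines the basal layer, was 13.82 and 13.85 in InvCREER and 14.14 and 14.17 in K14CREER, near the top of the scale. With an adjusted p of 0.0564 by limma Itga6 was not called, at 11.62 and 11.77 in InvCREER against 12.38 and 12.41 in K14CREER. Itga6 encodes the alpha6 integrin selected for in the sort. Involucrin RNA (Ivl) was dim, with a mean under the filter, and was not tested. Its values overlapped, at 4.78 and 5.06 in InvCREER and 4.58 and 6.23 in K14CREER. All 9 basal keratinocyte markers had lower means in InvCREER without overlap on their brightest probe sets, and 2 of them, Krt15 and Lamb3, fell. The probe sets of Dst disagreed, and 1 of its 3 other tested ones had the same sign (-0.82 to 0.63). Of 7 tested suprabasal markers, 4 rose (Krt1, Krt10, Dsg1a and Sbsn). Among the brightest probe sets of all tested genes, 45.3% did not overlap between the lines, 0.373% were called lower and 0.958% higher. In bulk samples fewer cells of a type and less RNA per cell cannot be told apart.

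**Figure D1:**
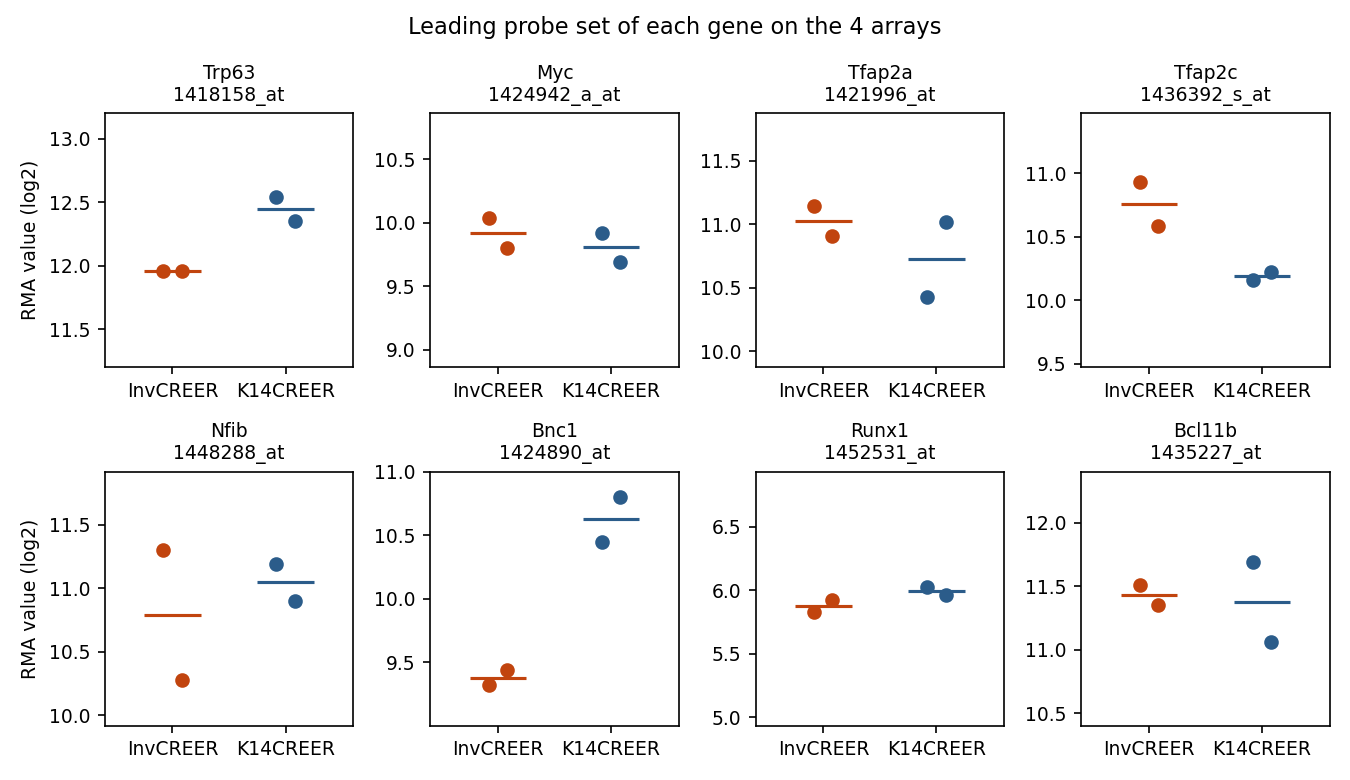
RMA log2 value of the brightest (leading) probe set of each of the 8 factors, with 1 point per array and a horizontal bar at the mean of each line; every panel spans 2 log2 units. The InvCREER points for Bnc1 lie at 9.32 and 9.44, under the K14CREER points at 10.45 and 10.80, while those of Myc, Nfib, Tfap2a and Bcl11b overlap.

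Bnc1 encodes basonuclin 1, a zinc finger protein of basal keratinocytes and germ cells that binds ribosomal RNA gene promoters. Its single probe set, 1424890_at, read 9.32 and 9.44 on the InvCREER arrays, against 10.45 and 10.80 on the K14CREER arrays. Both InvCREER values lay more than 1 log2 unit below both K14CREER values. The difference, InvCREER minus K14CREER, was -1.24 in log2 units (SE 0.20, 95% interval -1.72 to -0.77), and its adjusted p of 0.0528 by limma missed the threshold. It ranked 246 of 22519 by p, and 1.13% of tested probe sets had a difference as low or lower. The call depended on the processing: limma adjusted p ran from 0.0108 to 0.176 over 15 alternatives and passed in 8 of them, among them without InvCREER 1 (-1.19) and without InvCREER 2 (-1.30), while every alternative gave a lower value in InvCREER. Without K14CREER 2 the difference was -1.07, and without K14CREER 1 it was -1.42, and neither of these passed.

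The Bnc1 promoter is shown because this factor had the largest difference of the 8, and because AP-2 factors, which are members too, bind GC-rich sequence. The window, from RefSeq on GRCm38.p6, runs from 250 bases before to 50 bases after the annotated start and lies at chr7:81992250-81992549 on the minus strand. Capitals mark a match to the AP-2 motif GCCNNNGGC.

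Bnc1 promoter: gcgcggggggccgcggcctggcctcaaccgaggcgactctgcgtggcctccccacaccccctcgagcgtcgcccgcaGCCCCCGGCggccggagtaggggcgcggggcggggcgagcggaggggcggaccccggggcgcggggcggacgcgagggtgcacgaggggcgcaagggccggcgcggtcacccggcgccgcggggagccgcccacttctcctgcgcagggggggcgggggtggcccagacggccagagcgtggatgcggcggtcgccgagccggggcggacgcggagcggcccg

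G and C made up 83.3% of this window, against a median of 52.7% over all 32851 promoter windows, and 0.292% of windows were as rich or richer. The AP-2 match starts at position -173 from the annotated start. Such a match was found in 16.6% of all windows of this length, and in 72.9% of the 96 windows at least as GC-rich. No match to CACGTG (MYC and MAX), ACCACA (RUNX), the NFI palindrome or the paired p53 family core was found in the Bnc1 window on either strand, and these letters occurred in 7.15%, 16.8%, 0.0365% and 0.712% of all windows. A match, or none, is a description of the letters in this window.

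Bnc2, the paralog of Bnc1, read 8.13 and 7.04 in InvCREER, against 9.26 and 8.46 in K14CREER. The lines did not overlap, but the arrays of each line lay far apart, and the difference of -1.27 (SE 0.43) had an adjusted p of 0.261 by limma. Bnc2 is also known in fibroblasts. Over 10 dermal fibroblast markers the mean level was 6.06 and 5.83 in InvCREER, against 6.96 and 6.34 in K14CREER. Of the 6 tested, 5 had lower means on their brightest probe sets, and Sparc among them fell. Among the brightest probe sets of all tested genes 0.373% were called lower. Dcn, also among the 5, was 7.09 and 7.75 in InvCREER against 9.50 and 9.07 in K14CREER (adjusted p = 0.0552 by limma). Some probe sets disagreed. Vim, at -0.07, had 2 other tested ones at 0.28 and 0.44, and Fbln1, at 0.00, had 2 at -0.91 and -0.79. Sparc, at -2.36, had 2 others at -2.36 and -0.12. The 4 markers not tested, Col1a1, Col3a1, Pdgfra and Lum, had means under the filter, although Col3a1 was 6.12 on K14CREER 1. The part of these cells in the Bnc1 and Bnc2 values was not tested.

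Trp63 was read by 4 probe sets, which disagreed. The brightest, 1418158_at, was 11.96 and 11.96 on the InvCREER arrays, against 12.54 and 12.35 on the K14CREER arrays. It was lower in InvCREER on every array, by a difference of -0.49 (SE 0.12, 95% interval -0.77 to -0.20), a fold of 0.714, with an adjusted p of 0.126 by limma. Over 15 alternatives its adjusted p ran from 0.0504 to 0.634 and its difference from -0.58 to -0.26, the last being the mean of the gene's probe sets. A second probe set, 1451876_a_at, had no overlap either, at 5.43 and 5.40 in InvCREER against 5.81 and 5.87 in K14CREER, close to the filter. The third, 1452027_a_at, overlapped, with 5.42 and 5.72 in InvCREER and 5.45 and 6.07 in K14CREER. The last, 1459581_at, was 8.84 and 7.80 in InvCREER against 8.36 and 8.14 in K14CREER, so that InvCREER 1 was the highest and InvCREER 2 the lowest of the 4 arrays. Its difference of 0.07 was -0.45 without InvCREER 1. The gene has a long (TA) and a short (delta N) class of transcripts from separate starts, and the annotation used here does not say which of them each probe set reads.

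Genes of the p53 family and partners of p63 were read beside it. Trp73, a p53 family member related to p63, was 7.22 and 7.13 in InvCREER against 8.33 and 8.29 in K14CREER. Its difference of -1.13 (SE 0.22, adjusted p = 0.0784 by limma) did not pass, although the arrays of a line lay close together. Its other tested probe set was at -0.48. Sfn, which encodes 14-3-3 sigma, a cell cycle brake of keratinocytes, was 10.99 and 11.04 in InvCREER against 10.25 and 10.15 in K14CREER (adjusted p = 0.0699 by limma). Ppp1r13l, which encodes the p53 inhibitor iASPP, was at 0.22. None of the 7 tested genes was called, against 1.33% of the leading (brightest) probe sets of all 11270 tested genes (0.373% lower, 0.958% higher), and the list median was 0.04, against -0.01 over all tested probe sets. At an unadjusted p under 0.05 there were 2 of the 7, Trp73 and Sfn, against 16.1% of the leading probe sets of all genes.

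Known p63 targets in keratinocytes moved in both directions. Of 21 tested, 1 rose, 1 fell and 19 were not called, while 1.33% of the leading probe sets of all genes were called. Zfp750, a transcription factor that acts downstream of p63 to start terminal differentiation, rose by 1.98 (SE 0.22, adjusted p = 0.0215 by limma), to 9.18 and 9.42 in InvCREER against 7.27 and 7.37 in K14CREER. Jag2, a Notch ligand, fell to 8.47 and 8.28 in InvCREER, against 9.72 and 10.07 in K14CREER (adjusted p = 0.0431 by limma). The list median was -0.44, with 15 lower means and 6 higher. In 13 of the lower and 4 of the higher the lines did not overlap, against 45.3% of the leading probe sets of all genes. Beside the called genes, Krt5, Krt14, Itga3, Itga6, Itgb4, Dst, Fgfr2, Cdh3 and Col17a1 (lower), and Perp and Sfn (higher), had an unadjusted p under 0.05. Of the leading probe sets of all genes 16.1% did so. Krt5, Krt14, Itga6, Itgb4, Dst and Col17a1 are in this list and among the basal markers, so that these lists are not independent. Sfn and Satb1 are also in the list of p63 partners, and Zfp750 is also among the factors of epidermal differentiation.

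**Figure D2:**
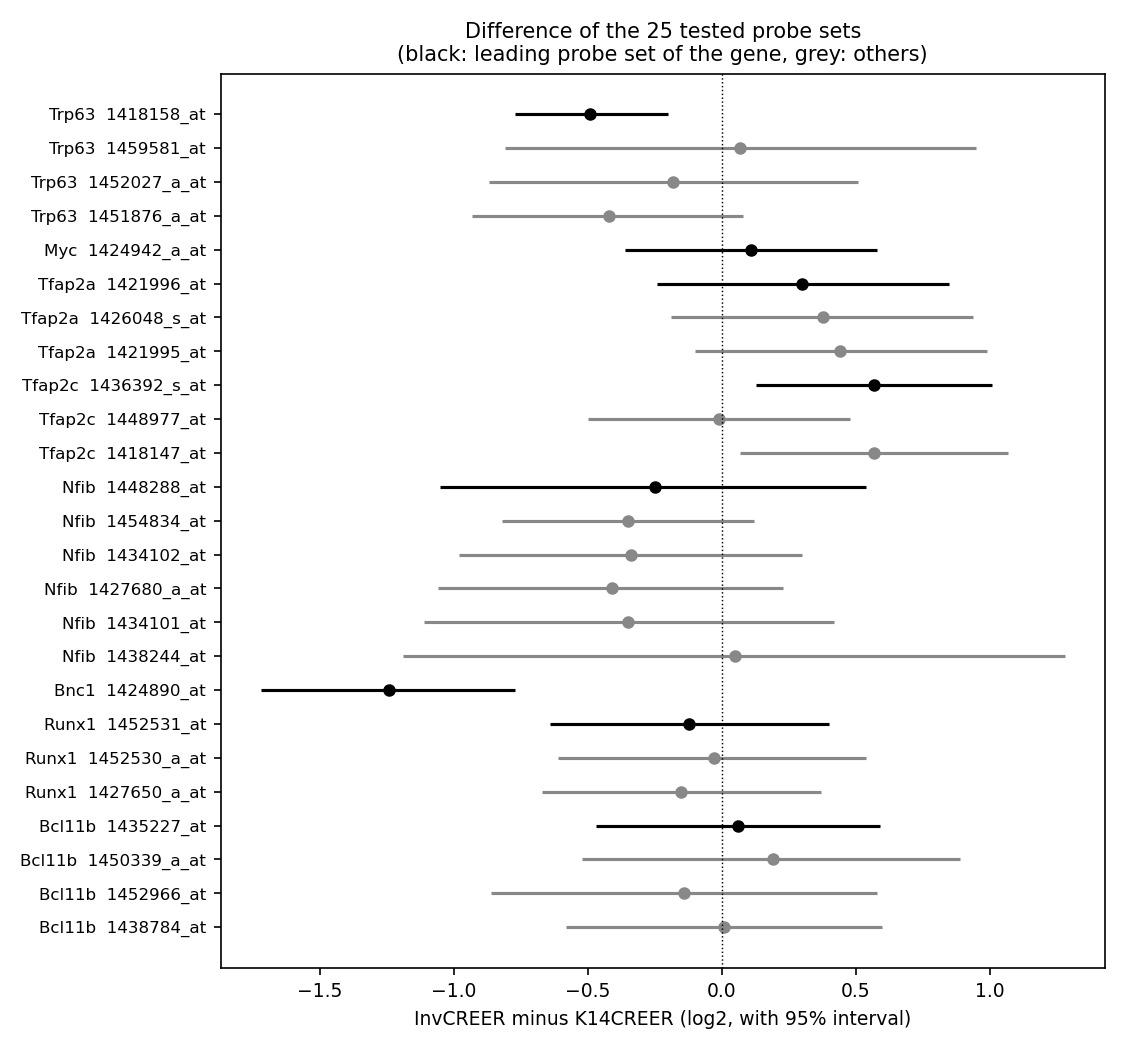
Difference, InvCREER minus K14CREER, of the 25 tested member probe sets in log2 units, with the 95% interval of the moderated fit; black marks the leading probe set of a gene and grey its other probe sets. Bnc1 at -1.24 lies farthest from 0, the Trp63 probe sets span -0.49 to 0.07, and 2 of the 3 Tfap2c probe sets lie at 0.57.

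Tfap2c encodes AP-2 gamma, which opens chromatin in surface ectoderm and works with p63 at keratinocyte enhancers. Its leading probe set, 1436392_s_at, read 10.93 and 10.58 on the InvCREER arrays, against 10.16 and 10.22 on the K14CREER arrays. Each InvCREER array lay above each K14CREER array. The difference was 0.57 (SE 0.18, 95% interval 0.13 to 1.01), a fold of 1.48, with an adjusted p of 0.235 by limma. A further probe set, 1418147_at, gave the same difference, 0.57 (SE 0.21), from 9.71 and 9.40 in InvCREER against 8.95 and 9.01 in K14CREER. The remaining one, 1448977_at, went against them. It was 9.83 and 9.59 in InvCREER and 9.59 and 9.85 in K14CREER, a difference of -0.01 with a 95% interval of -0.50 to 0.48. Its sign was turned without K14CREER 2 (0.12) and without InvCREER 2 (0.11).

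Tfap2a encodes AP-2 alpha, a factor of neural crest, facial and epidermal development. All 3 of its probe sets had higher means in InvCREER, by 0.30 to 0.44, and none was called (adjusted p from 0.482 to 0.678 by limma). The leading 1421996_at read 11.14 and 10.91 in InvCREER, against 10.43 and 11.02 in K14CREER. K14CREER 2 lay between the InvCREER arrays, so that the lines overlapped. Without K14CREER 1 the difference of this probe set was 0.01, and its 95% interval with all arrays was -0.24 to 0.85. The dimmer probe sets 1426048_s_at and 1421995_at did not overlap between the lines, although the first was nearly equal on InvCREER 2 and K14CREER 2, at 9.39 on each. AP-2 alpha is also made by melanocytes. Their 9 markers had mean levels of 5.80 and 6.22 in InvCREER against 6.24 and 5.87 in K14CREER, and none of the 5 that were tested was called.

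Among AP-2 relatives and cofactors 0 of 6 tested genes were called, and 1, Cited4, had an unadjusted p under 0.05. The shares among the leading probe sets of all genes were 1.33% and 16.1%. Cited4, a transcriptional coactivator that binds AP-2, was 6.57 and 7.14 in InvCREER against 5.56 and 5.58 in K14CREER, a difference of 1.28 (adjusted p = 0.0956 by limma). Kctd1 and Kctd15, which hold AP-2 activity down, were at 0.52 and 0.34. Tfap2b, a further family member, was at -0.33, with 8.87 and 8.26 in InvCREER and 8.68 and 9.11 in K14CREER.

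Nfib encodes nuclear factor I/B, which with NFIX keeps enhancers open in hair follicle stem cells. It was read by 7 probe sets, 6 of them tested, and the arrays of InvCREER differed from each other more than the lines did. The leading 1448288_at was 11.30 and 10.28 on the InvCREER arrays, against 11.19 and 10.90 on the K14CREER arrays. InvCREER 1 was thus the highest array and InvCREER 2 the lowest. The difference of this probe set was -0.25 (SE 0.33, 95% interval -1.05 to 0.54, adjusted p = 0.850 by limma), and 0.26 without InvCREER 2. InvCREER 2 was the lowest array in 6 of the 7 probe sets. Over the 6 tested, InvCREER 1 exceeded InvCREER 2 by 0.46 to 1.64, whereas K14CREER 1 minus K14CREER 2 ran from -0.13 to 0.58. The remaining probe set, 1416293_at, was flat at 5.32 to 5.46, under the filter.

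InvCREER 2 was also the lowest array for the other NFI genes. Nfia read 9.18 and 8.65 in InvCREER, against 9.93 and 9.20 in K14CREER. Nfic was 10.23 and 9.52 in InvCREER against 10.33 and 10.49 in K14CREER. Nfix was 12.33 and 11.95 in InvCREER against 12.48 and 12.52 in K14CREER. On the brightest probe sets of these 3 genes the lines did not overlap, unlike the leading Nfib probe set. Among the leading probe sets of all genes 45.3% did not overlap. The differences of the 3 NFI genes were -0.65, -0.54 and -0.36, none was called (adjusted p from 0.347 to 0.449 by limma), and Nfix had an unadjusted p under 0.05. Their other tested probe sets ran from -0.85 to -0.40 for Nfia, -0.31 to -0.04 for Nfic and -0.72 to 0.16 for Nfix. Of the leading probe sets of all genes 1.33% were called and 16.1% had an unadjusted p under 0.05. The median of the 3 NFI genes was -0.54, against -0.01 over all tested probe sets.

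**Figure D3:**
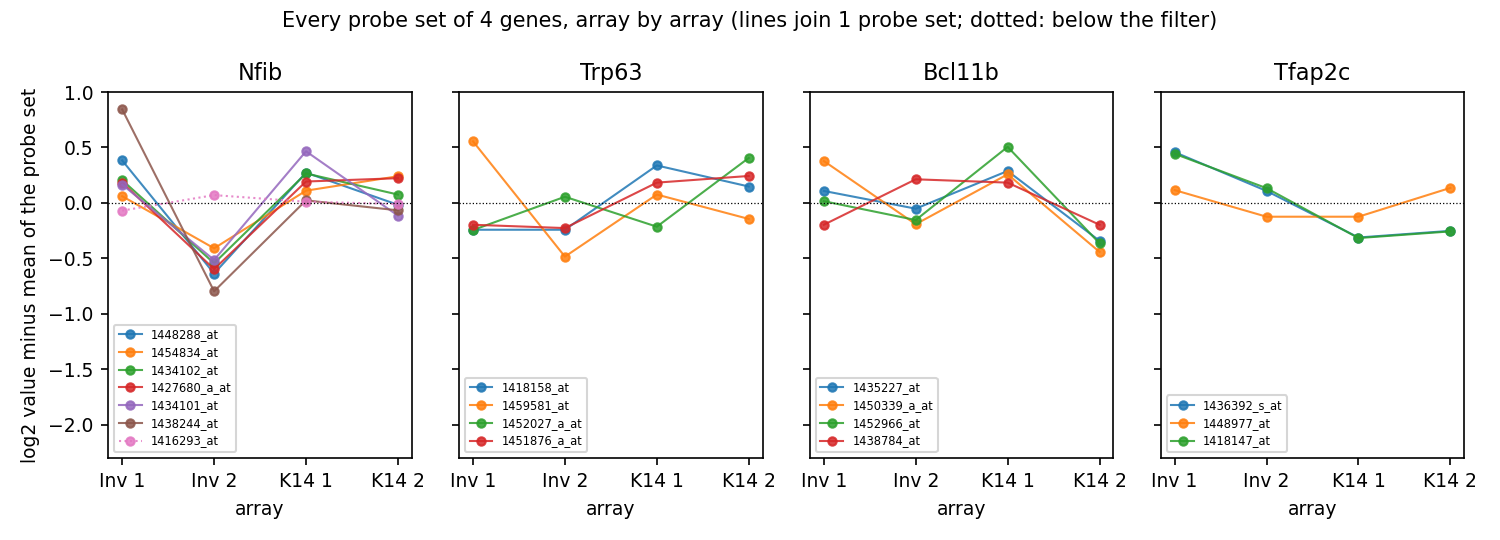
Every probe set of Nfib, Trp63, Bcl11b and Tfap2c, drawn as its log2 value on each array minus its own mean over the 4 arrays, with InvCREER arrays (Inv) left of K14CREER arrays (K14); a dotted line is a probe set under the filter. The 6 tested Nfib probe sets dip together on InvCREER 2, and 1 Tfap2c probe set does not follow the other 2.

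Myc was read by 1 probe set, 1424942_a_at, at 10.04 and 9.80 in InvCREER and 9.92 and 9.69 in K14CREER. The arrays of the lines alternated in level, and array number 1 exceeded array number 2 by 0.23 in each line. The difference was 0.11 (SE 0.19, adjusted p = 0.897 by limma), with a 95% interval from -0.36 to 0.58, a fold of 0.78 to 1.49. It was -0.01 without InvCREER 1.

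Other genes of the MYC, MAX and MXD network were not called either, 0 of 11 tested, and 1, Mycl, had an unadjusted p under 0.05. Of the leading probe sets of all genes 1.33% were called and 16.1% had an unadjusted p under 0.05. Mycl, which encodes L-MYC, was 10.83 and 10.79 in InvCREER against 9.89 and 10.29 in K14CREER, a difference of 0.72 (SE 0.19, adjusted p = 0.151 by limma). Max, the obligate partner of MYC, was at -0.16, Mycn at -0.30 and Mxd3, a MAX-binding repressor found in dividing cells, at -0.62. Of 22 known MYC targets 0 were called and 1, Ccnd2, had an unadjusted p under 0.05, with 9 higher and 13 lower means and a median of -0.04. Ccnd2, which encodes cyclin D2, was 11.61 and 11.40 in InvCREER against 12.39 and 12.22 in K14CREER (-0.80, adjusted p = 0.0565 by limma), and its 6 other tested probe sets had the same sign. Odc1, the first enzyme of polyamine synthesis, was at -0.54, and Tfrc, the transferrin receptor, at 0.54 with its arrays overlapping. The 2 other tested probe sets of Odc1 had the same sign, but the 1 other of Tfrc was at -0.06.

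Runx1 encodes the DNA-binding subunit of core binding factor, which promotes the activation of hair follicle stem cells. It was dim on this array: its 6 probe sets spanned 4.12 to 6.06 over all arrays, and 3 lay under the filter. The leading 1452531_at was 5.83 and 5.92 in InvCREER, against 6.03 and 5.96 in K14CREER. These values did not overlap, yet the whole range was under 0.3 log2 units, and the difference was -0.12 (SE 0.22, 95% interval -0.64 to 0.40, adjusted p = 0.901 by limma). The 3 tested probe sets lay at -0.15 to -0.03, and the 3 others had higher means in InvCREER. Among those, 1422864_at was 5.40 and 5.17 in InvCREER against 5.69 and 4.47 in K14CREER, so that K14CREER 1 was the highest and K14CREER 2 the lowest array. Values this near the floor of the array limit what can be read from them.

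Runx1 has a distal and a proximal promoter, whose annotated starts lie 129 kb apart. Both windows are shown because the values do not tell which of them was in use in these cells. They come from RefSeq on GRCm38.p6, at chr16:92826025-92826324 (distal) and chr16:92697280-92697579 (proximal), both on the minus strand. Capitals mark the RUNX motif ACCACA.

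Runx1 distal promoter: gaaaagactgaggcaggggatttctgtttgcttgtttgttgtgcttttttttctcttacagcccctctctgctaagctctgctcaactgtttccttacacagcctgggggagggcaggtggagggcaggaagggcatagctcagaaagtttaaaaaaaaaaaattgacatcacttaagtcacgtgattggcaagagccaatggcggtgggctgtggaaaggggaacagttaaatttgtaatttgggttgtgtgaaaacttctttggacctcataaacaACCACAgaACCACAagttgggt
Runx1 proximal promoter: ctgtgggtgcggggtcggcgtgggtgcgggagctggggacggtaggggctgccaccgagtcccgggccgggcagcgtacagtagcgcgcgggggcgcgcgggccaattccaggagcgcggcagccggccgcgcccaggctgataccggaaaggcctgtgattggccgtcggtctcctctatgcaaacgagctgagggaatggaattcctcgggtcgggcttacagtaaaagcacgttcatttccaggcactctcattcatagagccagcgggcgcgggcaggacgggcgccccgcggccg

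The distal window held 2 RUNX matches, at positions 29 and 37 after the annotated start, together with 1 match to CACGTG at position -71 and 1 to GCCNNNGGC at position -55. The proximal window, with 69% G and C against 45% in the distal one, held no match to any of the 5 motifs. The AP-2 and MYC matches are not in capitals. Of the 8 factors 4 had a promoter window here, 6 windows in all. Bcl11b had 1 match to GCCNNNGGC, and neither Tfap2a window had a match to the 5 motifs.

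Other RUNX genes gave little more. Cbfb, which encodes the partner subunit that stabilises RUNX proteins on DNA, was 11.02 and 11.25 in InvCREER against 11.20 and 11.52 in K14CREER, a difference of -0.22. The corepressor genes Tle3 and Tle4 were at 0.34 and 0.29. Runx3 lay under the filter on every array, at 5.00 to 5.14. None of the 4 tested genes of this list was called or had an unadjusted p under 0.05, against 1.33% and 16.1% of the leading probe sets of all genes.

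Bcl11b encodes a zinc finger repressor that acts in basal keratinocytes and is also needed for T cells. Its 4 probe sets overlapped between the lines, and their differences ran from -0.14 to 0.19 (adjusted p from 0.883 to 0.995 by limma). The leading 1435227_at was 11.51 and 11.35 in InvCREER, against 11.69 and 11.06 in K14CREER. Both InvCREER arrays lay between the K14CREER arrays. Its difference was 0.06 (SE 0.22, 95% interval -0.47 to 0.59), and -0.26 without K14CREER 2, the lowest array in 3 of the 4 probe sets. Of 8 T cell markers 6 lay under the filter, among them Cd3d at 4.50 and 4.54 in InvCREER and 4.72 and 4.68 in K14CREER, and Cd3e was just above it, at 5.48 to 5.63. Thy1, which other cells of the skin also make, was brighter, at 6.64 and 6.71 in InvCREER against 9.18 and 7.80 in K14CREER (-1.81, adjusted p = 0.131 by limma). The part of T cells in the Bcl11b values was not tested. The brightest probe set of its paralog Bcl11a lay between 8.94 and 9.05 on every array, at a difference of 0.02. The 5 other tested Bcl11a probe sets ran from -0.23 to 0.27, and 3 of them had the same sign.

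**Figure D4:**
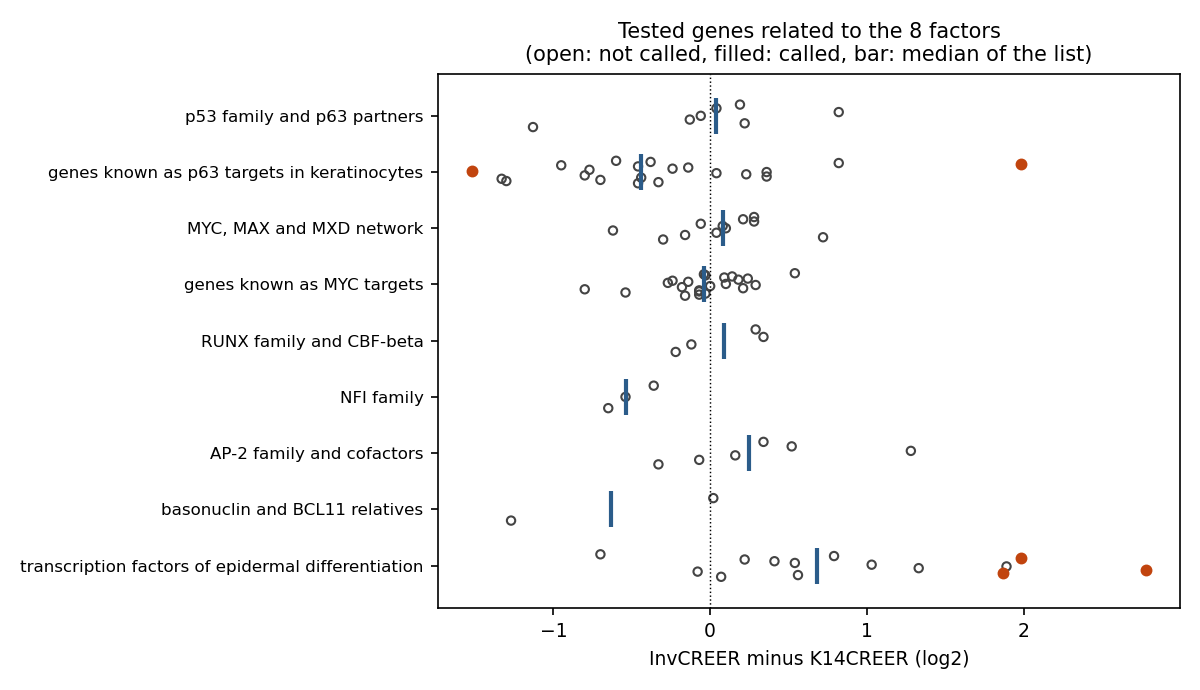
Difference, InvCREER minus K14CREER, in log2 units of the tested genes in 9 lists related to the 8 factors, with 1 circle per gene on its brightest probe set, filled where limma called it, and a bar at the median of each list. The NFI genes lie at -0.65 to -0.36, and 3 factors of epidermal differentiation are called at 1.87 to 2.78.

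Transcription factors of epidermal differentiation were read beside the basal ones. Of 14 tested, 3 rose (Grhl3, Grhl1 and Zfp750, at 2.78, 1.87 and 1.98) and none fell, against 0.958% higher and 0.373% lower among the leading probe sets of all genes. The median of the list was 0.68, with 12 higher means. Zfp750 is the same value that was counted among the p63 targets. The leading probe sets of the 8 basal factors had 4 higher and 4 lower means, from -1.24 to 0.57, with 3 of them at an unadjusted p under 0.05, against 16.1% of the leading probe sets of all genes. The difference between these lists was not tested.

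Genes whose centred values over the 4 arrays lay closest to a factor were found among 11262 other tested genes, by the root mean square difference in log2 units. Closest to Bnc1 were Bmp4 (0.0257), a BMP ligand, then Art4 (0.0484) and Zkscan17 (0.0492), whose own differences were -1.29, -1.19 and -1.28. Closest to Trp63 were Wnt4 (0.0167), Ccdc51 and Itgav, at -0.47, -0.48 and -0.53. Closest to Tfap2c were Ccnl2 (0.00744), Pus7l and Map2k4, at 0.56, 0.58 and 0.57. The nearest gene was Esam for Myc, Rasa2 for Runx1, Adgrb2 for Nfib, Tmem80 for Tfap2a and Soga1 for Bcl11b. With 4 arrays and that many genes close matches are common, and likeness here is a description alone.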

How the data were processed

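Affymetrix mouse arrays were used, 2 of InvCREER and 2 of K14CREER cells, from 100 ng of total RNA each, per the labels' protocols. The deposited values are log2 and were made by the authors with RMA, which forces arrays to one distribution and hides shifts in RNA content (Expression Console 1.1, per the submitters' notes on processing). Array medians were 5.40 to 5.44; the number of arrays limits the precision.

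Without the 64 controls, probe sets with a mean at or above the median, 5.42, were tested with limma 3.58.1 in R 4.3.3 (lmFit, eBayes with trend, 2-sided, Benjamini-Hochberg over 22519). Intervals used 6.33 degrees of freedom. With 2 arrays a line, no exact permutation p can pass the threshold. The brightest probe set represented a gene. Of 45037 probe sets, 34945 had 1 symbol and 932 several, which named no gene; symbols were updated from RefSeq (GRCm38.p6). Trp53, Runx2 and other listed genes without a singly named probe set were not analysed here.

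Members and lists were chosen with earlier results of these data known. Named were the 8 members, their paralogs, Max, Cbfb, markers and, per list, called genes or otherwise the 3 largest differences. The alternatives tried changed the dim filter, variance model, weighting, scaling, block, probe set kind, unit of testing or number of arrays.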

Additional observations from a re-analysis of the deposited data

How the results depend on the processing

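The number of called probe sets, 216 with 71.3% of them higher, was 405 at the stricter filter (53.1% higher), 122 without the variance trend (78.7%), 551 with 1 probe set per gene (54.8%) and 450 with the mean of the probe sets of each gene (57.8%), and 82 to 981 with 1 array left out. The K14CREER arrays gave 82 (replicate 1 dropped) and 143 (replicate 2 dropped), and the InvCREER arrays 499 (replicate 1 dropped) and 981 (replicate 2 dropped). With the replicate number as a block it was 1390 (49.0% higher). Same-numbered arrays deviated together at r = 0.38 over tested probe sets, which are not independent, but the labels do not say that a number marks a shared mouse or day.

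Among the 8 factors 0 probe sets were called in the main setting, and 1, that of Bnc1, in 8 of 15 alternatives. These were the stricter filter (-1.24, adjusted p = 0.0238 by limma), median centring (-1.24), quantile normalization (-1.23), the replicate block (-1.24, adjusted p = 0.0108 by limma), 1 probe set per gene (-1.24), the mean of the probe sets (-1.24), and without either InvCREER array; the range of adjusted p was 0.0108 to 0.176. Tests per gene and at the stricter filter were adjusted over fewer features; otherwise the cause was not tested. The replicate block changed no other member call.

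With 1 array left out, a line with a single array was assumed to vary like the other line. The leading differences then ran from -1.42 to -1.07 for Bnc1, -0.58 to -0.39 for Trp63, 0.39 to 0.74 for Tfap2c, 0.01 to 0.60 for Tfap2a, -0.17 to -0.07 for Runx1, -0.01 to 0.23 for Myc, -0.76 to 0.26 for Nfib and -0.26 to 0.37 for Bcl11b, so that the last 3 turned sign. Other probe sets that turned sign ranged from -0.45 to 0.59 (Trp63 1459581_at), -0.49 to 0.13 (Trp63 1452027_a_at), -0.20 to 0.13 (Runx1 1452530_a_at), -0.72 to 0.04 (Nfib 1434102_at), -0.77 to 0.87 (Nfib 1438244_at), -0.14 to 0.12 (Tfap2c 1448977_at), and -0.17 to 0.54, -0.57 to 0.30 and -0.19 to 0.22 (Bcl11b 1450339_a_at, 1452966_at and 1438784_at). No sign turned under the alternatives that kept all arrays.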
